A study of Mus musculus with 17 samples.

Results

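Cadherins hold cells to like cells, and tissues differ in which cadherins they make. The genes described here are 10 mouse cadherins, taken by symbol from a table of raw read counts for 43629 genes. They are Cdh1 (E-cadherin) and Cdh3 (P-cadherin) of epithelia, Cdh2 (N-cadherin) and Cdh4 (R-cadherin) of nerve tissue, Cdh5 (VE-cadherin) and Cdh13 (T-cadherin) of vessels, Cdh11 (OB-cadherin) of mesenchyme, Cdh6 (K-cadherin) and Cdh16 (Ksp-cadherin) of kidney epithelium, and Cdh17 (LI-cadherin) of gut epithelium. Values are CPM, read counts scaled to library size with the TMM method. All 10 had more than 0.5 CPM in at least 2 libraries, so all were tested. The rule that picked them is a list of names and used no measured value, but the list was chosen with earlier results of these data known.

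The libraries came from ID8, a line that its label describes as mouse ovarian surface epithelium, and from the tumours it formed. There were 3 solid tumours on the intestine, which the labels call metastases of the primary tumour, 3 libraries of the second ascites tap and 3 of the first. Ascites is the fluid with floating cells that gathers in the abdomen, drawn here with a syringe from mice whose ovarian tumours had progressed. A later tap is described in the protocol and was not analysed here. The primary tumours were 2 subcutaneous tumours and 3 orthotopic tumours, for which ID8 cells were put into the bursa around the right ovary. The subcutaneous samples are labelled as scruff tissue, while the protocol describes the flanks. The reference samples were 1 healthy intestine and 1 healthy ovary of C57BL6 mice and 1 library of the untreated line in culture. The labels name no drug and no engineered allele in any group, and give no age, sex or mouse for any sample. Tumours and ascites were sequenced whole, with the host cells they held, and fewer cells of a type and less RNA per cell cannot be told apart in such samples. Nothing in the labels says that libraries of a group came from separate mice, so p-values measure the spread between these libraries, which may be technical.

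Classical cadherins are calcium-dependent membrane proteins that bind the same cadherin on a neighbouring cell. Their tails bind beta-catenin and p120-catenin, and alpha-catenin links this complex to actin. Cdh13 lacks a tail and is held by a lipid anchor, and Cdh16 and Cdh17 have short tails that do not bind beta-catenin. Human ovarian surface epithelium is known for N-cadherin rather than E-cadherin, and a change of balance from E- to N-cadherin is a common readout of epithelial to mesenchymal transition. How epithelial or mesenchymal ID8 tumours are at each site is the question that the title of the study poses.

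The libraries held between 12031221 and 38902048 counted reads (median 27342134). Subcutaneous tumour 3, first tap 3 and second tap 1 had 32775 to 33393 genes with at least 1 count, against 21157 to 26838 in the other 14 libraries. In those 3 libraries the low-level members Cdh4, Cdh6 and Cdh16 also had the highest values of their groups. Calls and values that change without these libraries are given below with and without them. Tissue labels were checked against marker genes fixed as lists, which were also chosen with earlier results of these data known. Summed CPM of 12 intestinal epithelium markers was 8375 to 29951 in intestinal tumours and 25170 in healthy intestine, and at most 30.4 in any other library. The line had 1858 CPM of 8 mesothelial and ovarian surface markers. It had 1130 CPM of 12 pan-epithelial markers, against 1184 CPM in healthy ovary and 176 to 891 CPM in orthotopic tumours. Epcam, a general epithelial adhesion gene and 1 of these 12 markers, was at 0.58 CPM in the line.

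**Figure D1:**
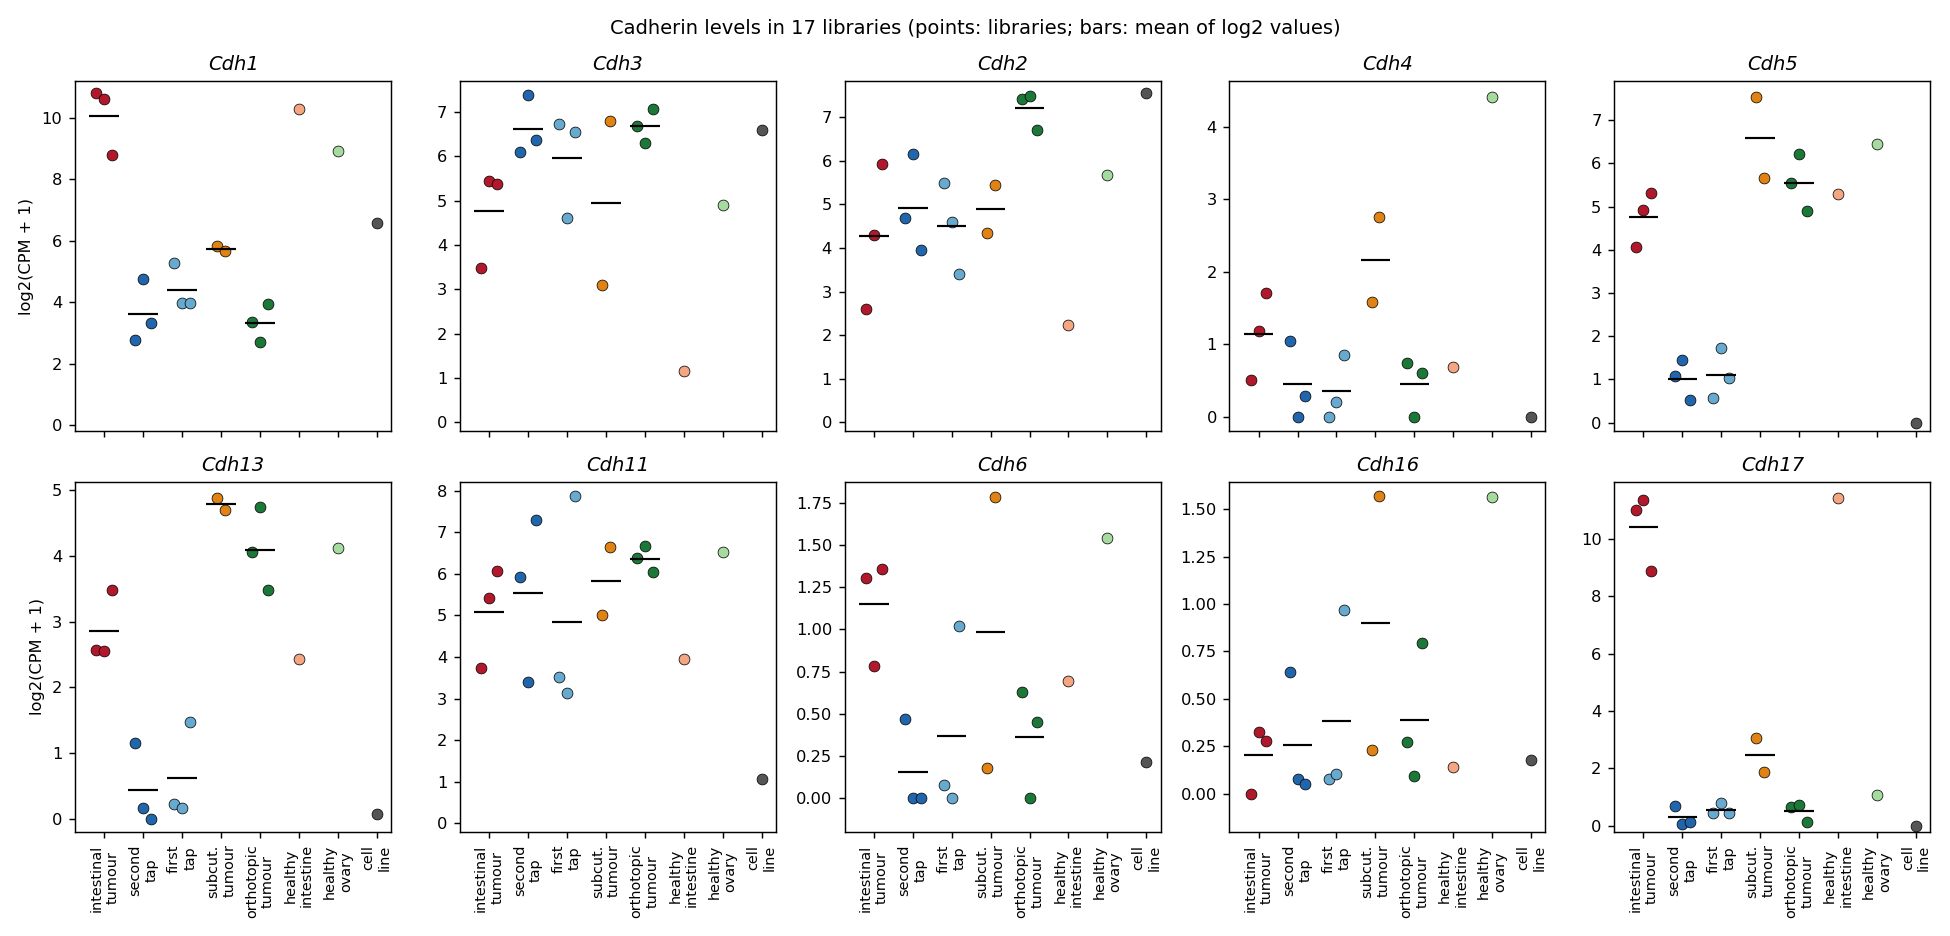
Each panel plots 1 cadherin as log2(CPM + 1) in each of the 17 libraries (points) by group, with bars at the mean of the log2 values. By group mean, Cdh1 and Cdh17 are highest in intestinal tumours and healthy intestine and Cdh2 in orthotopic tumours and the line, and Cdh5 and Cdh13 are near 0 in both taps and at or near 0 in the line.

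Cdh1, the main adhesion protein of epithelial junctions, had 1775, 1564 and 442 CPM in intestinal tumours 1, 2 and 3. It had 5.74, 26.1 and 9.0 CPM in the second tap and 37.8, 14.8 and 14.8 CPM in the first. It had 55.3 and 49.7 CPM in subcutaneous tumours 2 and 3 and 9.29, 5.52 and 14.4 CPM in the orthotopic tumours. The intestinal tumours stood apart from every other tumour or ascites library, and 2 of them were above the 1251 CPM of healthy intestine. Healthy ovary had 485 CPM and the line 94.0 CPM, so the line lay above all subcutaneous, orthotopic and ascites libraries. The taps and the orthotopic tumours overlapped, and the subcutaneous tumours were above both without overlap.

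Cdh3, which is found in basal layers of epithelia and in placenta, had another distribution. It had 10.2, 42.3 and 40.5 CPM in intestinal tumours, 67.7, 166 and 82.2 CPM in the second tap and 104, 23.3 and 91.9 CPM in the first. Subcutaneous tumours 2 and 3 differed, with 7.60 and 110 CPM, and the orthotopic tumours had 102, 78.2 and 133 CPM. Healthy intestine had 1.23 CPM, healthy ovary 29.0 CPM and the line 96.0 CPM. The line lay inside the range of the orthotopic tumours, and the intestinal tumours lay below that range. Cdh3 and Cdh1 are adjacent protein-coding genes in the RefSeq table of GRCm38.p6, and their levels were ordered differently: Cdh1 was highest in intestinal tumours, where Cdh3 was below every orthotopic tumour.

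Cdh2, the cadherin of neurons, heart and many mesenchymal cells, had 5.04, 18.6 and 59.5 CPM in intestinal tumours, 24.6, 69.6 and 14.5 CPM in the second tap and 44.2, 23.1 and 9.52 CPM in the first. It had 19.2 and 42.5 CPM in subcutaneous tumours and 168, 177 and 104 CPM in orthotopic tumours. Healthy intestine had 3.70 CPM, healthy ovary 49.7 CPM and the line 187 CPM. The orthotopic tumours and the line were thus above all other libraries. Intestinal tumour 3, which had the least Cdh1 of its group, had the most Cdh2. Cdh4, known from retina and brain, was at 20.3 CPM in healthy ovary and lower elsewhere. It had 2.00 and 5.74 CPM in subcutaneous tumours, 0.42 to 2.28 CPM in intestinal tumours, at most 1.07 CPM in taps and orthotopic tumours, 0.62 CPM in healthy intestine and 0 counts in the line.

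Cdh5, which joins endothelial cells to each other, was low in ascites. It had 15.6, 29.3 and 38.7 CPM in intestinal tumours, 1.1, 1.72 and 0.44 CPM in the second tap and 0.49, 2.31 and 1.03 CPM in the first. Subcutaneous tumours 2 and 3 had 184 and 49.5 CPM, and orthotopic tumours had 45.9, 73.8 and 28.7 CPM. No count of Cdh5 was seen in the line, where 3 counts, the floor used here for a count of 0, would be 0.0795 CPM. Healthy ovary had 85.8 CPM and healthy intestine 38 CPM. All solid tumours lay above all taps, and the solid tumour groups overlapped one another except for subcutaneous and intestinal tumours.

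Cdh13, the lipid-anchored cadherin of endothelium and smooth muscle and a receptor for adiponectin, was also low in ascites. It had 4.93, 4.84 and 10.1 CPM in intestinal tumours, 1.21, 0.11 and 0 CPM in the second tap and 0.16, 0.11 and 1.76 CPM in the first. It had 28.6 and 24.8 CPM in subcutaneous tumours, 15.7, 25.8 and 10.1 CPM in orthotopic tumours, 16.5 CPM in healthy ovary, 4.42 CPM in healthy intestine and 0.05 CPM, or 2 counts, in the line. No tap reached the level of any solid tumour, and the highest taps were second tap 1 and first tap 3.

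Cdh11, a cadherin of fibroblasts, bone-forming cells and mesenchyme, had its widest spread in ascites. Intestinal tumours had 12.4, 41.9 and 65.7 CPM. Second taps 1, 2 and 3 had 60.2, 9.52 and 156 CPM, and first taps 1, 2 and 3 had 10.4, 7.75 and 235 CPM. Subcutaneous tumours had 31.0 and 99.1 CPM, and orthotopic tumours 82.6, 101 and 65.2 CPM. Healthy intestine had 14.5 CPM, healthy ovary 90.5 CPM and the line 1.11 CPM. The tap libraries thus covered the range of every other tumour group, and every tumour and ascites library was above the line. Summed fibroblast markers in the 6 taps were 178 to 966 CPM, and the 8 mesothelial and ovarian surface markers summed to 7676 CPM in first tap 3 and 4801 CPM in second tap 3, the 2 taps with the most Cdh11; their part in the result was not tested.

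Cdh17, which holds enterocytes together, had 2018, 2582 and 473 CPM in intestinal tumours and 2731 CPM in healthy intestine. Outside them it was highest in subcutaneous tumours 2 and 3, at 7.38 and 2.70 CPM, and it was 0.06 to 0.76 CPM in taps, 0.11 to 0.66 CPM in orthotopic tumours and 1.12 CPM in healthy ovary. The line had 0 counts. The kidney cadherins Cdh6 and Cdh16 stayed low in all libraries. Cdh6 was highest in subcutaneous tumour 3, at 2.45 CPM, and healthy ovary, at 1.91 CPM. It was 0.72 to 1.57 CPM in intestinal tumours and at most 1.03 CPM in taps and orthotopic tumours. Cdh16 was highest in subcutaneous tumour 3 and healthy ovary, both at 1.96 CPM, and was at most 0.96 CPM elsewhere.

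To compare members with each other, CPM was divided by the exonic length of each gene in kilobases (kb), and each member was given as a share of the sum. Cdh17 led in intestinal tumours 1, 2 and 3, with 53.2, 61.2 and 44.6% of the sum, and in healthy intestine, with 68.1%. Cdh1 made up 45.8, 36.3 and 40.8% in those tumours, and came next after Cdh17 in each. Cdh3 led in all 3 second taps, with 56.5, 70.5 and 46.7%, and in first taps 1 and 2, with 61.1 and 40.7%. Cdh11 led in first tap 3, with 50.03%, and was close to Cdh3 in second tap 3, with 43.6%. Without length scaling Cdh11 led in second tap 3 too, at 156 CPM, against 82.2 CPM of Cdh3. The line was split about evenly among Cdh2 (35.3%), Cdh3 (33.2%) and Cdh1 (31.2%), and these 3 made up almost its whole sum.

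The primary tumours were mixed. Orthotopic tumour 1 had 34.2% Cdh3 and 30.6% Cdh2, tumour 2 had 24.6% and 30.4%, and tumour 3 had 49.1% and 20.9%. Their vascular members, Cdh5 and Cdh13, made up 18.1, 27.4 and 12.5%, and Cdh1 made up 1.67 to 5.11%. Subcutaneous tumour 2 was 64.4% Cdh5, while subcutaneous tumour 3 was 36.6% Cdh3 and 17.2% Cdh5, so these replicates differed in their leading member. Healthy ovary was 68.6% Cdh1. The summed level was 848, 943 and 237 CPM per kb in intestinal tumours and 896 in healthy intestine, against 155 in healthy ovary and 13.0 to 72.4 in all other libraries. These shares are per library and were not tested.

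**Figure D2:**
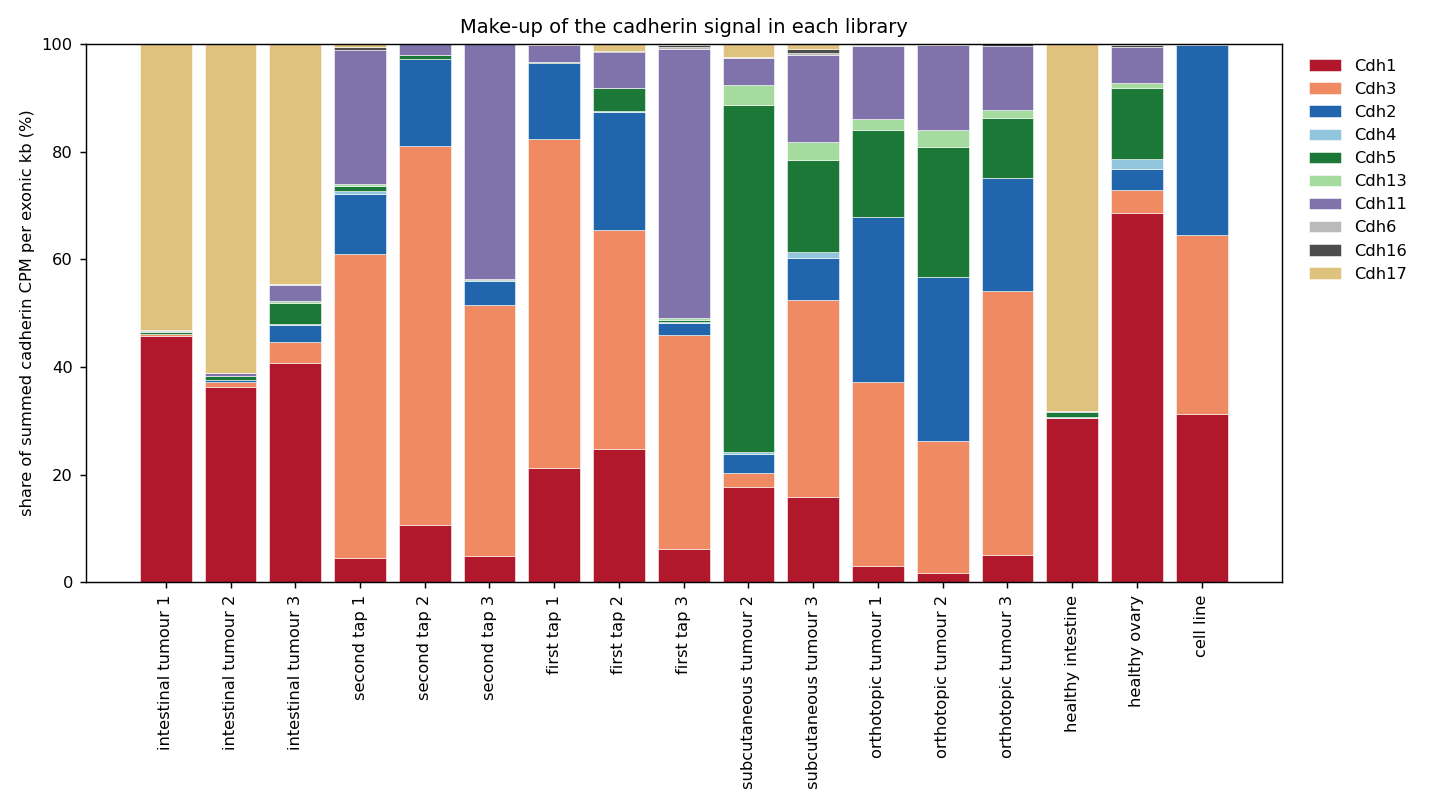
Bars show the share (%) of each of the 10 cadherins in the sum of their CPM per exonic kb, for each of the 17 libraries. Cdh17 and Cdh1 are the largest parts of the bars of intestinal tumours and healthy intestine, Cdh3 is the largest part of 5 of the 6 ascites bars on this length-scaled measure, and Cdh5 fills 64.4% of subcutaneous tumour 2.

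Intestinal tumours differed from orthotopic tumours in the gut and epithelial members. Cdh17 rose by 11.88 ± 1.23 on the log2 scale (SE; edgeR quasi-likelihood test, Benjamini-Hochberg adjusted p = 0.000278) and Cdh1 by 7.01 ± 0.84 (adjusted p = 0.000627), each higher in 3 of 3 libraries than in any orthotopic tumour. These 2 of 10 members passed, both higher, and 15.5% of the 22671 genes tested were called in this comparison, 10.4% higher and 5.13% lower. Cdh2 had 27.7 ± 28.4 CPM (SD, n = 3) in intestinal tumours and 150 ± 40.0 CPM in orthotopic tumours, a log2 fold change of -2.43 ± 0.85 that did not pass (adjusted p = 0.0742 by edgeR). Without intestinal tumour 3 the change of Cdh2 was -3.74 and passed (adjusted p = 0.0213), and it also passed by DESeq2, another count model, over a range of 0.0169 to 0.219. Cdh3 had a log2 fold change of -1.75 ± 0.84 and did not pass (edgeR adjusted p = 0.178). The members' median log2 fold change was -0.90, beside 0.06 for all genes tested.

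Markers of gut epithelium moved with Cdh17 and Cdh1. All 12 intestinal epithelium markers were higher in intestinal than in orthotopic tumours, as were 9 of 12 pan-epithelial markers, and summed intestinal markers were 29951, 26887 and 8375 CPM in intestinal tumours 1, 2 and 3, against 6.80 to 14.2 CPM in orthotopic tumours. Intestinal tumour 3 was lowest in this sum and in both cadherins. The CPM ratio of Cdh17 to Vil1, a microvillus gene of enterocytes, was 1.03, 0.73 and 0.52 in the tumours and 0.96 in healthy intestine. The ratio of Cdh1 to Epcam was 1.63, 2.17 and 1.89 in the tumours and 1.24 in healthy intestine. The part of host gut tissue in the levels of Cdh1 and Cdh17 was not tested.

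Set against healthy intestine, the intestinal tumours had similar mean Cdh1, less Cdh17 and more Cdh3 and Cdh2, none of which passed. Cdh17 had 1691 ± 1092 CPM (SD, n = 3) in the tumours and 2731 CPM in healthy intestine, and Cdh1 had 1260 ± 716 CPM in the tumours and 1251 CPM in healthy intestine. Cdh3 was 10.2 to 42.3 CPM in the tumours, against 1.23 CPM in healthy intestine (log2 fold change 4.65 ± 1.60). Cdh2 was 5.04 to 59.5 CPM in the tumours, against 3.70 CPM in healthy intestine (2.91 ± 1.40). With 1 library of healthy intestine, assumed to vary like the other groups, edgeR called 0 of 10 members and 0% of all genes. At an unadjusted p under 0.05 it gave 1 member, Cdh3, and 584 of the 22671 genes tested. DESeq2 called Cdh3 too, and 45 of all genes. The members' median log2 fold change was 0.86, beside 0.02 for all genes.

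Ascites differed from orthotopic and intestinal tumours in the vascular members. Against orthotopic tumours, Cdh5 fell by 5.39 ± 0.59 on the log2 scale in the taps (edgeR adjusted p = 0.00117), with 1.18 ± 0.72 CPM (SD, n = 6) in taps and 49.5 ± 22.7 CPM (n = 3) in orthotopic tumours. Cdh13 fell by 4.96 ± 0.98 (adjusted p = 0.0175), with 0.56 ± 0.74 CPM in taps and 17.2 ± 7.95 CPM in orthotopic tumours. These 2 of 10 members passed, both lower in 6 of 6 tap libraries, and 4.51% of all genes were called, 2.67% lower and 1.84% higher. Cdh13 did not pass without orthotopic tumour 1 (adjusted p = 0.0550), without orthotopic tumour 2 (adjusted p = 0.0736) or with either tap alone, over a range of 2.36e-05 to 0.0861. Its log2 fold change was -6.45 without second tap 1, -6.16 without first tap 3 and -7.60 without the 3 libraries with most genes detected. The members' median was -0.27, beside 0.15 for all genes.

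Endothelial and fibroblast markers moved the same way. In taps against orthotopic tumours, 9 of 11 endothelial and 9 of 10 fibroblast markers were lower, and 9 of 10 macrophage markers were higher. Summed endothelial markers were 54.8 to 321 CPM in taps and 354 to 594 CPM in orthotopic tumours. The CPM ratio of Cdh5 to Pecam1, another endothelial junction gene that blood cells also express, was 0.05 to 0.23 in taps and 0.71 to 1.25 in orthotopic tumours. The part of endothelial content in these results was not tested. Cdh2 in taps, at 30.9 ± 22.3 CPM, against 150 ± 40.0 CPM in orthotopic tumours, had a log2 fold change of -2.30 ± 0.68 that did not pass (adjusted p = 0.0746 by edgeR). It passed when only the groups compared were fitted (adjusted p = 0.0358) and by DESeq2, over a range of 0.00901 to 0.253. Summed markers of neurons and glia were 15 to 22.8 CPM in taps and 33.6 to 82.8 CPM in orthotopic tumours, with 1 of 10 lower in taps, and 19.2 CPM in the line; their part in the level of Cdh2 was not tested. Cdh1 changed by 0.84 ± 0.58 (adjusted p = 0.420), and Cdh3 by -0.25 ± 0.70.

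Intestinal tumours against the taps gave 4 calls of 10 members by edgeR, all higher. Here 18.3% of all genes were called, 12.4% higher and 5.85% lower. Cdh17 rose by 12.17 ± 0.90 on the log2 scale (edgeR adjusted p = 1.05e-05), Cdh1 by 6.17 ± 0.60 (adjusted p = 3.91e-05), Cdh5 by 4.56 ± 0.58 (adjusted p = 0.000207) and Cdh13 by 3.59 ± 0.95 (adjusted p = 0.0214). None of these 4 overlapped between the groups, but they are named because they passed, so this is no added support. Cdh13 did not pass without intestinal tumour 3 (adjusted p = 0.0577) or with either tap alone, over a range of 0.000416 to 0.104, and its log2 fold change was 4.97 without second tap 1 and 4.68 without first tap 3. That of Cdh17 was 12.95 without second tap 1. The members' median was 2.19, beside -0.17 for all genes. Of the endothelial markers 8 of 11 were higher in intestinal tumours and 1, Esam, named after its value was seen, was lower, and all 12 intestinal and all 8 smooth muscle markers were higher. The orthotopic tumours and the taps each serve in several of these comparisons, which are therefore not independent of each other.

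Between the second and the first tap no member passed. edgeR called 0 of 10 members and 0% of all genes, with 0 members at an unadjusted p under 0.05 and 0 by DESeq2. The log2 fold changes ran from -1.43 ± 1.81 for Cdh6 to 0.53 ± 0.82 for Cdh3. The standard errors were 0.65 for Cdh1 and 0.81 for Cdh2, so differences of such a size were not detectable with these libraries. The members' median was -0.40, beside -0.04 for all genes.

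Subcutaneous tumours stood above orthotopic tumours in Cdh1, Cdh4 and Cdh17 and below them in Cdh2, without overlap, but no member passed the edgeR test. The share of all genes without overlap is not given, so this separation is only described. Cdh17 had 5.04 ± 3.31 CPM (SD, n = 2) in subcutaneous tumours and 0.45 ± 0.30 CPM (n = 3) in orthotopic tumours, a log2 fold change of 3.50 ± 0.94 (adjusted p = 0.0928). Cdh1 had 52.5 ± 3.92 CPM in subcutaneous tumours and 9.74 ± 4.47 CPM in orthotopic tumours, a change of 2.43 ± 0.72 (adjusted p = 0.112). Cdh2 changed by -2.28 ± 0.99 (adjusted p = 0.222). Cdh4, at low levels in both groups, changed by 3.24 ± 1.67 (edgeR adjusted p = 0.281). Cdh17, Cdh1 and Cdh2 were at an unadjusted p under 0.05 by edgeR, as were 4690 of the 22671 genes tested. edgeR called 0.0132% of all genes here. DESeq2 called 2 members, Cdh1 and Cdh17, and 2274 of the 22671 genes. By edgeR, Cdh17 had 3.91 without the 3 libraries with most genes detected (adjusted p = 0.0395, over a range of 0.00813 to 0.325), but this leaves subcutaneous tumour 2 as the only library of its group, assumed to vary like the other groups. Mitochondrial genes took 14.0 and 10.7% of counts in subcutaneous tumours 2 and 3, against 6.37 to 6.99% in the orthotopic group, and no other library exceeded 8.30%; their part in these differences was not tested. The members' median was 1.44, beside 0.25 for all genes.

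The 2 subcutaneous tumours were unlike each other. Cdh5 changed by 1.24 ± 0.72 against orthotopic tumours (adjusted p = 0.327), but by -0.025 without subcutaneous tumour 2, so its direction rested on that library. Subcutaneous tumour 2 also had 2129 CPM of 8 B cell markers, against 13.7 CPM in subcutaneous tumour 3, and its ratio of Cdh17 to Vil1 was 10.6, against 1.00 in subcutaneous tumour 3. B cells of some stages express Cdh17 in the mouse; their part in its level was not tested. Summed keratinocyte markers were 147 and 869 CPM in subcutaneous tumours 2 and 3, against 13.5 to 26.8 CPM in orthotopic tumours, and the part of skin in the level of Cdh1 was not tested either.

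**Figure D3:**
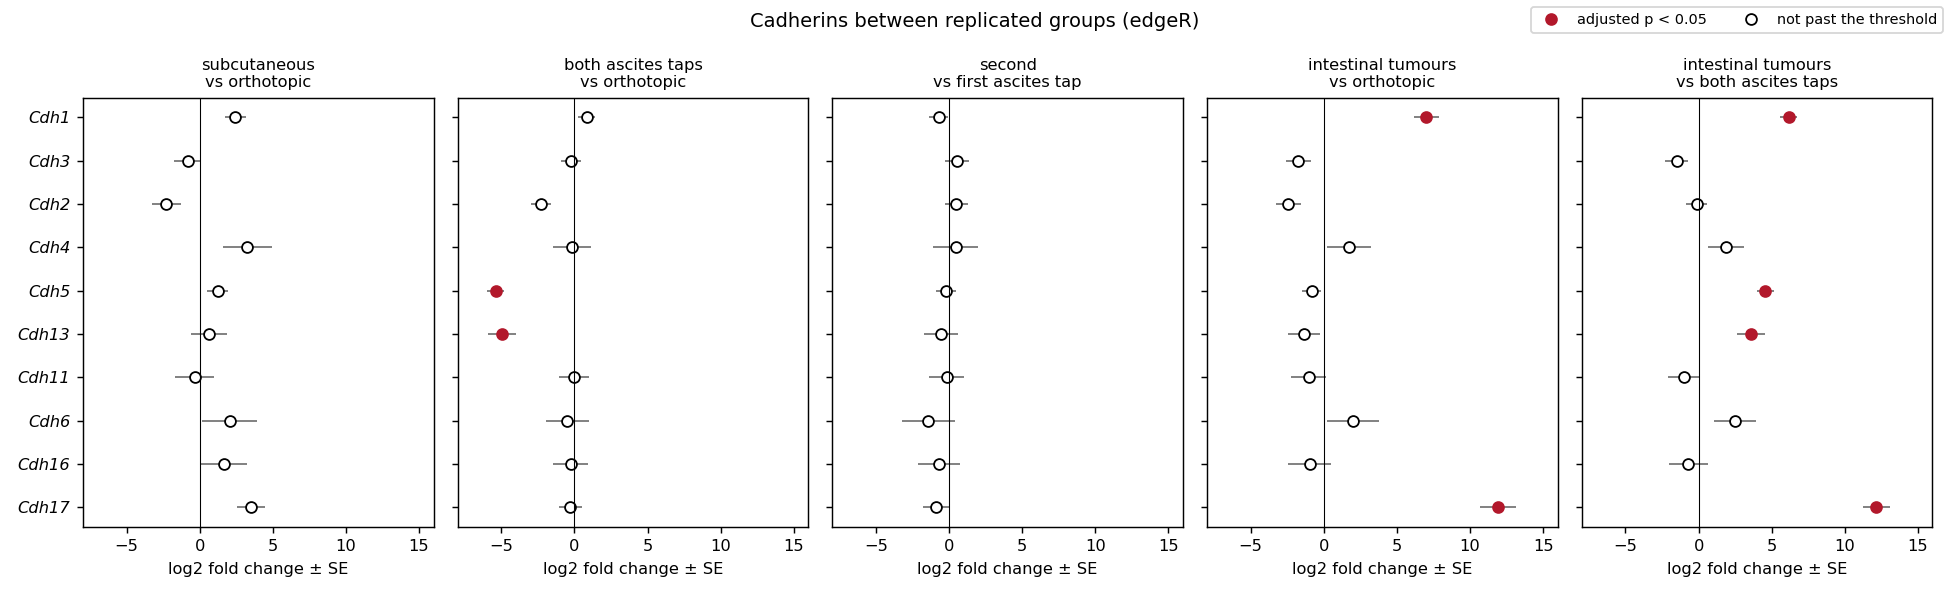
Points show the edgeR log2 fold change of each cadherin in the 5 comparisons between replicated groups, the first group named over the second, with bars for the standard error; filled points passed at an adjusted p under 0.05. Cdh17 and Cdh1 are far to the right in both intestinal tumour panels, and Cdh5 and Cdh13 lie at -5.39 and -4.96 for taps against orthotopic tumours.

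Against the cultured line, Cdh5 was higher in all 3 groups compared, although its call in taps was lost under several alternatives. This group is 1 library, so each test assumes that it varies like the others. Cdh5 was at least 623-fold higher in orthotopic tumours (edgeR adjusted p = 0.0134), at least 1470-fold higher in subcutaneous tumours (adjusted p = 0.00729) and at least 14.9-fold higher in taps (adjusted p = 0.0412), taken against 3 counts in the line. The fitted log2 change in subcutaneous tumours, which is no bound, was 14.73, and 13.56 without subcutaneous tumour 2 and 15.35 without subcutaneous tumour 3. The call in taps did not pass without second tap 1 (adjusted p = 0.0653) or second tap 2 (adjusted p = 0.0522), with no filter on low counts (adjusted p = 0.0535), with the second tap alone (adjusted p = 0.0531) or without the 3 libraries with most genes detected (adjusted p = 0.0569), over a range of 0.00428 to 0.0653. Kdr, Tie1, Emcn, Cldn5 and Erg, all endothelial, were at 0 in the line as well, where the 11 endothelial markers summed to 40.2 CPM. Of those 11 markers, 5 were higher in orthotopic tumours, 7 in subcutaneous tumours and 3 in taps than in the line.

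Cdh5 was the only member that passed in orthotopic tumours and in taps against the line, where 3.2% and 6.2% of all genes were called, 2.37% and 3.84% higher and 0.834% and 2.36% lower. In subcutaneous tumours Cdh17 passed too, at least 63.4-fold higher than the line (adjusted p = 0.0311), with 9.49% of all genes called and 6.25% higher and 3.23% lower. Cdh17 did not pass with no filter on low counts (adjusted p = 0.0646) or without subcutaneous tumour 2 (adjusted p = 0.0659), over a range of 0.000417 to 0.0659. Its fitted log2 change was 9.37 without subcutaneous tumour 2, against 10.20 with both. Cdh13 had 2 counts in the line, and its level was 325 times as high in orthotopic tumours (95% counting interval 89.8 to 2680), 504 times as high in subcutaneous tumours (140 to 4166) and 10.6 times as high in taps (2.93 to 87.4), without passing the edgeR test; DESeq2 called it in both tumour groups.

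Cdh1, Cdh2 and Cdh3, which the line itself expressed, did not pass in any of these 3 comparisons by edgeR. Cdh1 changed by -3.27 ± 0.83 on the log2 scale in orthotopic tumours (edgeR adjusted p = 0.0538), by -0.84 ± 0.94 in subcutaneous tumours (adjusted p = 0.557) and by -2.43 ± 0.72 in taps (adjusted p = 0.0658). It passed in orthotopic tumours when libraries were scaled by their totals alone (adjusted p = 0.0489), with a filter of more than 1 CPM in at least 3 libraries (adjusted p = 0.0459), without the 3 libraries with most genes detected and by DESeq2, over a range of 0.00437 to 0.145. In taps it passed by DESeq2 and without second tap 2 (adjusted p = 0.0275) or first tap 1 (adjusted p = 0.0378), over a range of 0.0240 to 0.184. Cdh2 changed by -0.32 ± 1.12 in orthotopic tumours, by -2.60 ± 1.17 in subcutaneous tumours and by -2.62 ± 0.89 in taps, and Cdh3 by 0.12 ± 1.17, by -0.71 ± 1.2 and by -0.13 ± 1.07. Cdh11 had 42 counts in the line and a log2 fold change of 6.21 ± 2.50 in orthotopic tumours (adjusted p = 0.180), 5.86 ± 2.48 in subcutaneous tumours and 6.16 ± 2.46 in taps, and passed in none of these by edgeR but in all 3 by DESeq2.

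Against healthy ovary, Cdh1 fell by 5.64 ± 0.86 on the log2 scale in orthotopic tumours (edgeR adjusted p = 0.0178). It was 9.74 ± 4.47 CPM in the tumours (SD, n = 3) and 485 CPM in the 1 library of healthy ovary. It was the only member to pass, with 0.6% of all genes called, 0.591% lower and 0.00882% higher. It did not pass when any 1 orthotopic tumour was left out (adjusted p = 0.126 without tumour 1, 0.131 without tumour 2 and 0.0660 without tumour 3), over a range of 4.07e-07 to 0.131. Cdh4 was 0 to 0.67 CPM in the tumours and 20.3 CPM in healthy ovary (-5.63 ± 1.93, adjusted p = 0.275). The members' median was -1.06, beside -0.07 for all genes. Of 12 pan-epithelial markers 3 were lower in the tumours and none higher. The 8 markers of kidney and Mullerian epithelium, the lineage of oviduct and uterus, summed to 107 to 173 CPM in the tumours and 1890 CPM in healthy ovary; the part of such tissue in the ovary's Cdh1 was not tested.

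The balance of E- and N-cadherin was taken per library as the log2 ratio of Cdh1 to Cdh2, each in CPM plus 1. It was 8.20, 6.32 and 2.87 in intestinal tumours, -1.92, -1.38 and -0.63 in second taps, -0.22, -0.61 and 0.58 in first taps, 1.48 and 0.22 in subcutaneous tumours and -4.04, -4.77 and -2.77 in orthotopic tumours. Healthy intestine stood at 8.06, healthy ovary at 3.26 and the line at -0.99. The balance was thus towards Cdh2 in every orthotopic tumour, more so than in the line, and towards Cdh1 in every intestinal and subcutaneous tumour. This ratio is not scaled to exonic length, 4.574 kb for Cdh1 and 8.066 kb for Cdh2, so 0 does not mark equal levels. Per exonic kb the same held for these tumours. Yet Cdh1 then exceeded Cdh2 in every first tap and in second tap 3 (1.97 against 1.80 CPM per kb), and the line had 20.6 against 23.2. The taps lay between the orthotopic and the intestinal tumours without overlap. Second tap 3 and first tap 2 were nearly level, and the order of these libraries turned round with a pseudocount of 5.

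The ratio differed by 9.66 between intestinal and orthotopic tumours, by 6.49 between intestinal tumours and taps, by 3.16 between taps and orthotopic tumours, by 4.71 between subcutaneous and orthotopic tumours and by -1.23 between second and first taps. In two-sided exact permutation tests over libraries, with the smaller tail doubled, p was 0.1, 0.0238, 0.0238, 0.2 and 0.1 for these 5 comparisons in that order. In each case this was the smallest p that this form of the test can give. Adjusted over the 5, the lowest was 0.0595, so none could have passed 0.05 in this form, and no conclusion is drawn from the failure to pass. The ratio of a sample with host cells in it does not give the state of ID8 cells alone.

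**Figure D4:**
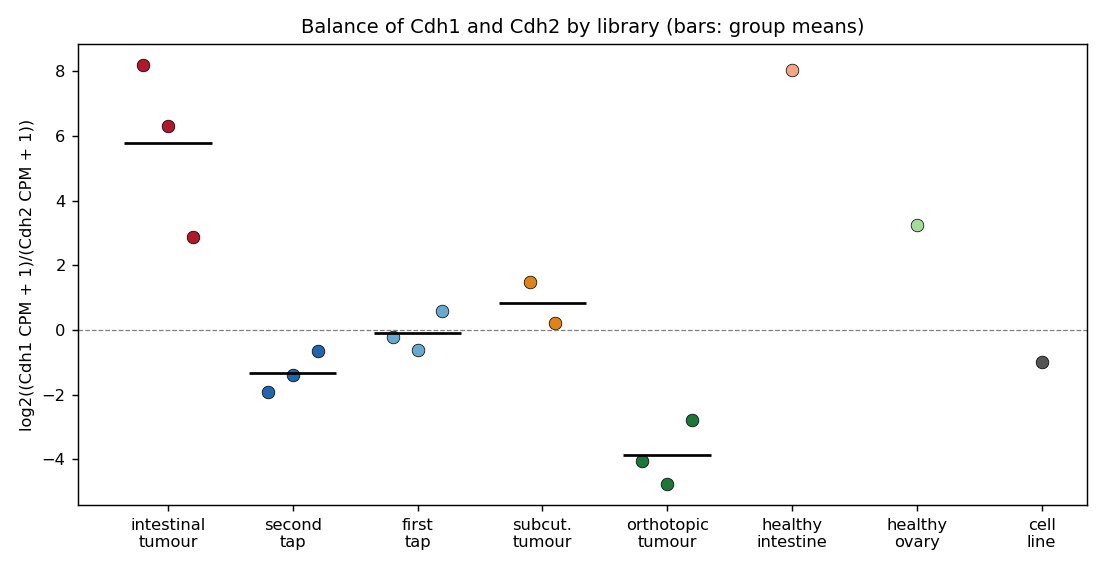
Points show log2((Cdh1 CPM + 1)/(Cdh2 CPM + 1)) for each library by group, with bars at group means. The 3 intestinal tumours lie between 2.87 and 8.20 and the 3 orthotopic tumours between -4.77 and -2.77, with both taps between them.

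Among 19 catenins and junction partners, 5 rose and none fell in intestinal tumours against taps, each change named here having an edgeR adjusted p under 0.05. Nectin3, an adhesion protein that joins junctions beside cadherins, rose by 7.32 ± 0.56 on the log2 scale, Lima1, an actin binder at junctions, by 1.68 ± 0.39, Pkp4, a p120-catenin relative, by 1.38 ± 0.26, and Ctnna1, alpha-catenin itself, by 1.02 ± 0.27. Against orthotopic tumours, Nectin3 (4.74 ± 0.67), Lima1 (2.23 ± 0.49) and Pkp4 (1.29 ± 0.32) rose in intestinal tumours, while Ctnnal1 (-2.56 ± 0.59), an alpha-catenin relative, and Ctnna2 (-3.93 ± 1.13), the neural alpha-catenin, fell. In taps against orthotopic tumours 1 of 19 changed, Nectin3, which fell by 2.58 ± 0.50. The list's median log2 fold change was between -0.09 and 0.22 in these 3 comparisons. Over all genes, 18.3%, 15.5% and 4.51% were called in them, so the list's counts of 5, 5 and 1 of 19 are read against those shares. DESeq2 called 7, 6 and 4 of 19 there, and 6 of 19 in both subcutaneous tumours and taps against the line.

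Transcription factors of epithelial to mesenchymal transition, several of which repress Cdh1, and epithelial factors that oppose them made up a list of 14 genes. In taps against orthotopic tumours, 3 fell and none rose: Snai1 (-3.61 ± 0.40), Snai2 (-2.08 ± 0.42) and Zeb1 (-1.33 ± 0.28), all repressors of Cdh1, which itself did not pass there. The listed Zeb2 did not pass but had higher means in taps. It averaged 599 CPM in second and 655 CPM in first taps (lowest 160 CPM), against 211 CPM in orthotopic tumours. In the same comparison 9 of 10 fibroblast markers fell and 9 of 10 macrophage markers rose, and their part in the levels of these 4 factors was not tested. In intestinal tumours against orthotopic tumours, 5 rose, among them the epithelial transcription factors Ovol1 (5.82 ± 0.91) and Grhl2 (4.78 ± 1.05) and the epithelial splicing regulator Esrp1 (7.46 ± 1.58), and 2 fell, Zeb1 (-1.46 ± 0.34) and Snai2 (-1.89 ± 0.53). Against taps, 5 rose in intestinal tumours, Ovol1 (5.53), Grhl2 (5.51), Esrp1 (8.88) and the repressor Snai1 (2.56) among them, and 1 fell, Zeb2 (-2.64 ± 0.67). In taps against the line 3 repressors fell, Snai1 (-4.12), Snai2 (-3.44) and Twist2 (-4.15). Over all genes, edgeR called 4.51% in taps and 15.5% in intestinal tumours against orthotopic tumours. The share was 18.3% in intestinal tumours against taps and 6.2% in taps against the line. In that order, DESeq2 called 1 of the list higher and 5 lower, 6 and 2, 6 and 1, and 1 and 3. The list's median was -0.70 in taps against orthotopic tumours, and -0.14 and 0.40 in intestinal tumours against orthotopic tumours and taps. The gut markers above moved with the epithelial factors, and their part here was not tested.

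Of 9 proteases and gamma-secretase subunits that act on cadherins at the membrane, Mmp7, a matrix protease made by Paneth cells of the gut, rose by 7.54 ± 1.26 on the log2 scale and Ncstn, a gamma-secretase subunit, by 1.08 in intestinal against orthotopic tumours. Against taps, Mmp7 rose by 9.14 and Mmp3 by 4.07 in intestinal tumours, and Adam15 fell by 2.13. These were 2 of 9 against orthotopic tumours, where 15.5% of all genes were called, and 3 of 9 against taps, where 18.3% were called. In taps against orthotopic tumours Adam15 rose by 2.58 and Mmp3 fell by 4.37, 2 of 9 beside 4.51% of all genes. The counts depended on the model. In these comparisons, in that order, DESeq2 called 3 of the list higher and 0 lower, 4 and 3, and 2 and 1. Of all 22671 genes it called 5921, 6011 and 3442. Of 12 other classical cadherins, 11 could be tested, and edgeR called none of them in any of the 10 comparisons. At an unadjusted p under 0.05 there were 0 to 2 per comparison, and DESeq2 called 3 of them in each of the comparisons with the line and 0 in the other comparisons.

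**Figure D5:**
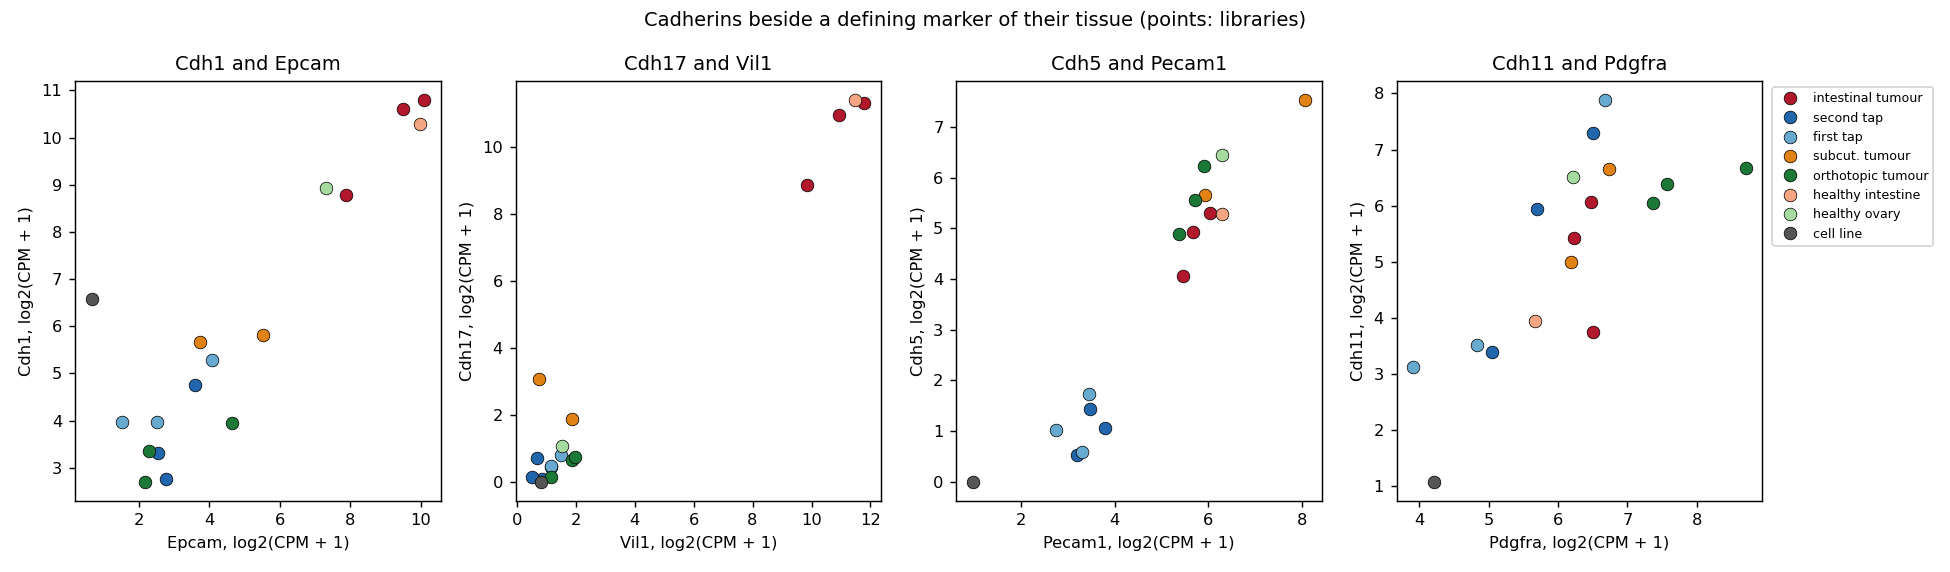
Points show each library's log2(CPM + 1) of a cadherin (vertical) against that of a marker of its tissue (horizontal), coloured by group. Intestinal tumours and healthy intestine lie at the top right of the Cdh1 and Cdh17 panels, with healthy ovary beside intestinal tumour 3 for Cdh1, taps lie at the low end of the Cdh5 panel, and the line has Cdh1 at 94.0 CPM with Epcam at 0.58 CPM.

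Genes with the pattern most like each member were found by the mean absolute difference of log2(CPM + 1), each gene centred on its own mean over the 17 libraries. For Cdh17 the nearest was Slc6a19 (0.38), and for Cdh1 they were Lad1 (0.59), Spint1 (0.74) and Serinc2 (0.77). Genes near Cdh5 were Adgrl4 (0.57) and Fmo1 (0.57), and those near Cdh13 were Lrrc32 (0.42), Sox18 (0.44) and Fbln5 (0.47). For Cdh2 they were Slc7a5 (0.39), Mmp11 (0.51) and Scd2 (0.55), for Cdh3 Arhgdig (0.32), Zbtb7c (0.37) and Mtcl1 (0.40), and for Cdh11 Pcdhb16 (0.49), Gli2 (0.58) and Prickle1 (0.61). Cdh4, Cdh6 and Cdh16 were at low levels in most libraries, and genes at low levels differ little by this measure. Their nearest genes were Lsamp (0.28), Ccdc60 (0.14) and Cfap58 (0.12). The measure uses the same 17 libraries for every gene, and no p was computed.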

How the data were processed

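Per the labels' protocols, total RNA was taken with Trizol, and strand-specific libraries were prepared by a modified NEBNext Ultra II method. Tools named in the submitters' processing notes are HISAT, HISAT2, featureCounts and DESeq2, with no version. The notes name both hg19 and mm39, so no coordinates are given. The values the authors deposited were raw read counts per Ensembl gene; 42462 of 43629 identifiers matched a symbol, 39055 genes had a count, and 1 column that matched no sample was not used.

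The counts were fitted with edgeR 4.0.16 (R 4.3.3). Genes above 0.5 CPM in at least 2 libraries (22671) were fitted in 1 robust quasi-likelihood model with 8 groups, TMM scaling (factors 0.70 to 1.37) and 9 residual degrees of freedom. A gene passed at a Benjamini-Hochberg adjusted p under 0.05 over all genes tested. Where members are said not to overlap between groups, the share of all genes without overlap is not given. CPM is scaled by TMM. Both taps were averaged with equal weight. Exonic lengths came from the GENCODE M21 annotation. Single values were tested by exact permutation (scipy 1.17.1). The fit was tested on simulated data.

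Alternatives were library totals alone, relative log expression factors, no filter or more than 1 CPM in at least 3 libraries, DESeq2 1.42.0, only the groups compared, each tap alone, a replicate block, each library left out, 2 other pseudocounts and shares without length. Leaving out the 3 libraries with most genes detected was added after seeing the data. The members and gene lists were chosen with earlier results of these data known. All 10 members are named, with up to 3 genes of most similar pattern for each (some of these are not reported here) and up to 4 passing genes per list and comparison by smallest p. Intervals and floors cover counting error only, since no molecular identifiers were counted.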

Additional observations from a re-analysis of the deposited data

How the results depend on the processing

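The counts of cadherins called moved by over 1.5 times under these alternatives. By DESeq2 they were 2 for subcutaneous against orthotopic tumours, 5 for orthotopic tumours against the line, 5 for subcutaneous tumours against the line, 4 for taps against the line and 1 for intestinal tumours against healthy intestine. Without the 3 libraries with most genes detected they were 1 (Cdh17), 3 for orthotopic tumours against the line and 0 for taps against the line. Taps against orthotopic tumours gave 1 with the first tap alone and 1 with the second tap alone, and 1 to 2 with single libraries left out. Orthotopic tumours against the line gave 2 with library totals alone and 2 with the stricter filter. Subcutaneous tumours against the line gave 1 with no filter and 1 to 2 with single libraries left out. Taps against the line gave 0 with no filter, 0 with the second tap alone and 0 to 2 with single libraries left out, the lowest without second tap 1. Orthotopic tumours against healthy ovary gave 0 without any 1 orthotopic tumour. The cause of these shifts was not tested. Recomputed fold changes were tallied for only some of the pairs of member and comparison. Of those tallied, 392 kept direction and side of the threshold, 19 newly passed, 18 no longer passed and 1 reversed. The reversal was Cdh5 in subcutaneous against orthotopic tumours, at -0.025 without subcutaneous tumour 2 and 1.75 without subcutaneous tumour 3. Pairs outside the tally, among them changes close to no difference, may also reverse. Over all alternatives the genes called ran from 0 to 2274 for subcutaneous against orthotopic tumours, 218 to 3442 for taps against orthotopic tumours, 1211 to 5921 and 2191 to 6011 for intestinal tumours against orthotopic tumours and taps, and 309 to 3742 for orthotopic tumours against the line. Library totals alone moved the median of all genes by -0.29 and -0.25 for intestinal tumours against orthotopic tumours and taps, by 0.16 against healthy intestine, and by 0.14 and 0.25 for orthotopic and subcutaneous tumours against the line. None of the tallied fold changes turned direction under this scaling. Without length scaling the leading member changed in 2 libraries, from Cdh3 to Cdh2 in orthotopic tumour 1, where Cdh3 made up 24.0%, and from Cdh3 to Cdh11 in second tap 3.

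The labels do not say whether replicate numbers pair the samples. Same-numbered libraries correlated at -0.56 to 0.44, over 0.1 in 6 of 26 pairs. With so few libraries per group this cannot show whether they came from the same mouse. With the replicate block the called members numbered 2 for taps and 2 for intestinal tumours against orthotopic tumours, 4 for intestinal tumours against taps and 0 in the other 2 comparisons, as without it, and the Cdh1 to Cdh2 ratio differed by 4.62 between subcutaneous and orthotopic tumours. No paired analysis was possible for comparisons with the line, healthy intestine or healthy ovary because each is 1 library. Depth limits what can be said of Cdh4, Cdh6 and Cdh16, which had few counts in most libraries.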
